A study of Mus musculus with 5 samples.

Results

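The Dlk1-Dio3 imprinted locus on mouse chromosome 12 was examined through its 6 long transcripts, *Dlk1*, *Meg3*, *Rtl1*, *Rian*, *Mirg* and *Dio3*, in RNA sequencing of brain microvascular fragments. They were picked by their gene symbols from the 37982 Ensembl gene identifiers listed for each mouse. *Rtl1* is among the genes that the study itself listed as lower in the same Ins2-AKITA mice, with Cufflinks at a corrected p under 0.05. The values below therefore describe the genotype contrast and do not test it. All 6 were found. The 5 other than *Dio3* averaged an FPKM of 1 or more and were among the 16286 gene symbols that were tested. FPKM is the number of sequenced fragments per kilobase of exon, scaled to sequencing depth.

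The RNA came from males on a C57BL6 background between 26 and 38 weeks of age, 3 of them WT and 2 Ins2-AKITA, with 1 library per mouse. Ins2-AKITA mice are heterozygous for a mutant insulin 2 gene, are short of insulin and become chronically hyperglycemic, and the WT mice were littermate controls. The fragments were pulled from brain tissue with beads carrying an antibody to PECAM1, so that they hold endothelial cells with attached pericytes and astrocyte end-feet. The comparison addresses which transcripts of the brain vessels differ after long-term hyperglycemia.

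At an imprinted gene, the copy from 1 parent is active and the copy from the other parent is silenced by marks set in the germ line. In the Dlk1-Dio3 locus the paternal chromosome expresses the protein-coding genes. These are *Dlk1*, a transmembrane relative of the Notch ligands, *Rtl1*, a gene derived from a retrotransposon with known roles in placental vessels, and *Dio3*, the deiodinase that inactivates thyroid hormone. The maternal chromosome expresses long noncoding RNAs, namely *Meg3*, the *Rtl1* antisense transcript, *Rian* and *Mirg*. Many snoRNAs are processed from the transcript of *Rian* and many miRNAs from that of *Mirg*. The maternal RNAs lie in the same direction on the chromosome, and *Meg3* is known as an abundant RNA of neurons.

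The locus spans 828275 bp of chromosome 12 in assembly NCBIM37. *Dlk1* (ENSMUSG00000040856) lies at 110691033 to 110701546 and *Meg3* (ENSMUSG00000021268) at 110779211 to 110809936, both on the plus strand. *Rtl1* (ENSMUSG00000085925) lies between *Meg3* and *Rian*, at 110827404 to 110838540 on the minus strand. It has 2 exons, of which exon 2 (110827404 to 110833698, 6295 nucleotides) carries the coding sequence of 5232 nucleotides. *Rian* (ENSMUSG00000091793) lies at 110842155 to 110899919, *Mirg* (ENSMUSG00000091158) at 110973191 to 110987665 and *Dio3* (ENSMUSG00000075707) at 111517278 to 111519307, all on the plus strand.

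Because the maternal chromosome is read through *Rtl1* on the opposite strand, the miRNAs made there are exact complements of the *Rtl1* messenger RNA. Their sequences are shown because they tie a maternal RNA to a paternal one base by base. Of the annotated miRNA genes, 6 (*Mir431*, *Mir433*, *Mir127*, *Mir434*, *Mir432* and *Mir136*) lie on the plus strand within exon 2 of *Rtl1*. The RefSeq table (GRCm38.p6) gave 11 mature miRNAs for them. All 11 matched the NCBIM37 exon exactly, once each, and each match lay inside the *Rtl1* coding sequence. Their 11 seeds, bases 2 to 8 of the miRNA that do most of the pairing with a target, all differed. Here 3 of them are printed with the seed in capitals, each followed by the stretch of *Rtl1* on its own coding strand with the seed's complement in capitals.
mmu-miR-127-3p: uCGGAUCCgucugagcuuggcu
Rtl1 opposite mmu-miR-127-3p: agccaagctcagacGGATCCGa
mmu-miR-433-5p: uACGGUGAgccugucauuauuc
Rtl1 opposite mmu-miR-433-5p: gaataatgacaggcTCACCGTa
mmu-miR-433-3p: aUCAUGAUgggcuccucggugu
Rtl1 opposite mmu-miR-433-3p: acaccgaggagcccATCATGAt
These stretches lie at chr12:110831098-110831119, chr12:110829939-110829960 and chr12:110829991-110830012. miR-127 is known to direct cleavage of *Rtl1* messenger RNA. The 2 arms of miR-433 are shown because *Mir433* was 1 of the 2 miRNA genes of the locus with a value above 0 in any mouse.

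The promoter of *Meg3* is printed because *Meg3* was by far the most abundant transcript of the locus in these libraries. In the RefSeq table it covers 250 bases before and 50 after the annotated start (GRCm38.p6, chr12:109540746-109541045, plus strand). Capitals mark TGACGTCA, the cyclic AMP response element, and the joined matches of TATAAA, the TATA box, read on both strands.
Meg3 promoter: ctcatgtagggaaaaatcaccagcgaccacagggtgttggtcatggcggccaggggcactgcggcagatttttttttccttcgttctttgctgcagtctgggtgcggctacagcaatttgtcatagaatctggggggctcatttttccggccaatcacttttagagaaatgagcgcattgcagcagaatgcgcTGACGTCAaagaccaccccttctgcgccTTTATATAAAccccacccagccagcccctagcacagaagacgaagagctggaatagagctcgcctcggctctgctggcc
The TGACGTCA began 57 bases before the start and the TATAAA 25 bases before it. Among 32851 promoters of this length, 13.6% held TATAAA on either strand, 1.79% held TGACGTCA and 0.170% held both. Of the other members' promoters in that table, the *Dio3* window held TATAAA 31 bases before the start, and those of *Dlk1*, *Rian* and *Mirg* and a second *Meg3* start held neither. *Rtl1* has no entry there.

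The libraries hold few fragments and more than vessel cells. From the steps between low FPKM values, the WT libraries were estimated at 1152000, 1330000 and 2822000 fragments and the Ins2-AKITA libraries at 1130000 and 1288000. Genes of small and ribosomal RNAs took a share of the FPKM sum of 96.7%, 96.6% and 58.0% in WT against 89.6% and 40.6% in Ins2-AKITA mice. All 15 endothelial markers were detected, and their FPKM summed to 598 to 1010 in WT and 483 to 610 in Ins2-AKITA mice. Markers of cells outside the vessel wall were present as well. The sum of 13 neuron markers was 1880 to 2010 in WT and 1998 to 2385 in Ins2-AKITA mice, led by *Camk2a*, a kinase of excitatory neurons. That of 7 oligodendrocyte markers was 1928 to 2615 and 2098 to 2306. In such mixed samples, fewer cells of a type and less RNA per cell cannot be told apart.

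*Meg3*, the maternal noncoding RNA closest to *Dlk1*, reached 1421, 1121 and 599 FPKM in the WT mice against 932 and 553 in the Ins2-AKITA mice. The third WT mouse was below the first Ins2-AKITA mouse, so the groups overlapped. The mean was 1047 ± 416 (SD, n = 3) in WT and 743 ± 268 (SD, n = 2) in Ins2-AKITA mice. *Meg3* lay above 99.7% of all gene symbols by its mean FPKM. Between 12736 and 30241 fragments per mouse stood behind its values, by the estimated depth and all annotated exons, so counting error was small against the 2.57-fold range over the mice.

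*Rian*, the host transcript of the locus's snoRNAs, had 69.6, 50.5 and 53.2 FPKM in WT against 65.1 and 57.2 in Ins2-AKITA mice. Its highest mouse was 1.38 times its lowest, the narrowest range of the 6 transcripts, and both Ins2-AKITA values fell within the WT range. *Mirg*, the host of the distal miRNA cluster, had 24.5, 21.2 and 12.1 FPKM in WT against 23.7 and 10.4 in Ins2-AKITA mice. For *Mirg* the third WT mouse and the second Ins2-AKITA mouse were low and the other 3 were close together. It rested on 39.5 to 101 fragments per mouse over all exons, or on 22.5 to 58.0 where only the longest transcript was counted.

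Among the protein-coding genes of the locus, *Rtl1* had the highest values, with 46.2, 38.2 and 24.1 FPKM in WT against 29.9 and 18.1 in Ins2-AKITA mice. The first Ins2-AKITA mouse lay above the third WT mouse, so the groups overlapped here too. The mean was 36.2 ± 11.2 (SD, n = 3) in WT and 24.0 ± 8.35 (SD, n = 2) in Ins2-AKITA mice, with an estimated 327, 311 and 418 fragments in WT against 208 and 143 in Ins2-AKITA mice. The libraries were strand-specific, but whether strand was used in making the FPKM values is not given in the sources used here. Fragments of *Rtl1* and of its maternal antisense RNA can therefore not be told apart in these values.

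*Dlk1* varied most, with 14.2, 8.60 and 10.7 FPKM in WT against 5.09 and 16.9 in Ins2-AKITA mice. The Ins2-AKITA mice held both the lowest and the highest value of all 5, a 3.31-fold range, with an estimated 89.4, 62.0 and 164 fragments in WT against 31.3 and 118 in Ins2-AKITA mice. *Dio3* was near the limit of detection, with 0.521, 0.461 and 0.641 FPKM in WT against 0.540 and 0.948 in Ins2-AKITA mice. With the shorter of its annotated transcripts, these values came out at 1.00, 1.00 and 3.00 fragments in WT against 1.01 and 2.01 in Ins2-AKITA mice. No fold difference is given for *Dio3*, since no mouse had more than about 3 fragments and intervals at such counts cover counting error only.

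**Figure D1:**
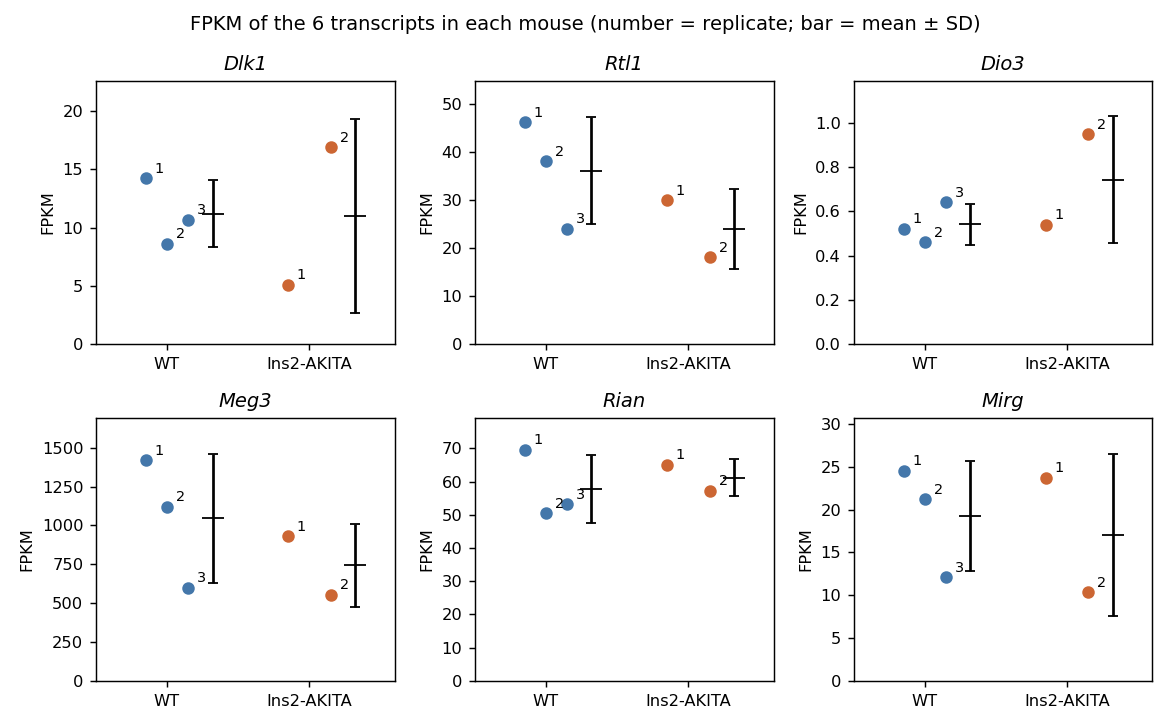
FPKM (y axis, linear and starting at 0, scaled per gene) of the 6 transcripts in each mouse, with WT in blue and Ins2-AKITA in orange, the replicate number beside each point and bars for the mean ± SD of 3 WT and 2 Ins2-AKITA mice. In every panel the values of the genotypes overlap. The highest mouse is Ins2-AKITA replicate 2 for Dlk1 and Dio3 and WT replicate 1 for the other 4.

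Per length, the levels fell in the same order in 4 of the 5 mice, *Meg3*, *Rian*, *Rtl1*, *Mirg*, *Dlk1* and *Dio3*. In Ins2-AKITA replicate 2, *Dlk1* stood above *Mirg*. The FPKM of *Meg3* did not overlap with that of *Rian*, nor that of *Rian* with that of *Rtl1*, over the 5 mice. The ranges of *Rtl1* and *Mirg* overlapped, although *Rtl1* was above *Mirg* in each mouse, and *Mirg* and *Dlk1* did not differ beyond their spread. The maternal host RNAs *Rian* and *Mirg* thus stood on either side of *Rtl1*, whose values may include its maternal antisense RNA. *Dio3* lay below the 3-fragment level of 4 of the 5 mice.

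The locus holds 88 annotated genes, and beside the 6 long transcripts these are 57 miRNA genes, 23 snoRNA genes and 2 further long noncoding RNA genes. Of the 80 small RNA genes, 78 were at 0 in all 5 mice. Over the genome, 1.49% of 1544 miRNA genes and 7.67% of 1552 snoRNA genes were above 0 in any mouse, so small RNA genes outside the locus were mostly at 0 as well. The 2 exceptions in the locus, named here after their values were seen, were *Mir433* and *Mir1188*. *Mir433*, antisense to *Rtl1*, was listed at 126288 FPKM in Ins2-AKITA replicate 1 and at 0 in the other 4 mice. *Mir1188*, inside *Rian*, was listed at 327950 FPKM in the same mouse alone. These genes are 124 and 120 nucleotides long, shorter than the effective fragment length of 208 to 232 nucleotides that the depth estimate gave, and their values were 5.16 and 1.24 times the lowest nonzero value of genes of that length in that mouse. Values this high can come from very few fragments at such lengths, and they are no measure of the mature miRNAs.

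**Figure D2:**
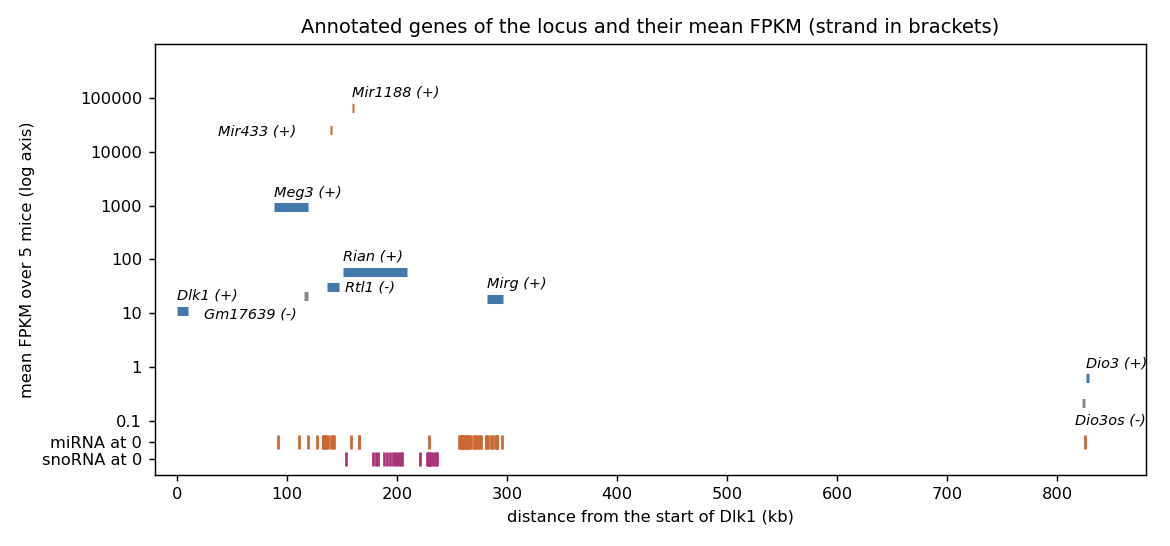
Annotated genes between Dlk1 and Dio3, placed by distance from the start of Dlk1 (x axis, kb) and by mean FPKM over the 5 mice (y axis, log scale), with the 6 transcripts in blue, other long noncoding RNAs in grey, and small RNA genes at 0 in all mice as ticks at the bottom. The long transcripts run from Meg3, near 1000 FPKM, down to Dio3 below 1, while the points of Mir433 and Mir1188 come from Ins2-AKITA replicate 1 alone.

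Of the 2 other long noncoding RNA genes, *Gm17639* (ENSMUSG00000090521, 110806838 to 110809933) is annotated on the minus strand over the 3′ end of *Meg3*. It had 37.6, 26.4 and 10.2 FPKM in WT against 17.7 and 10.9 in Ins2-AKITA mice, 17.0 to 26.5 for every 1000 FPKM of *Meg3*. As with *Rtl1*, its own fragments and those of the RNA on the opposite strand cannot be told apart. *Dio3os*, antisense to the region before *Dio3* and also named after its values were seen, was above 0 only in WT replicate 3 (0.333 FPKM) and Ins2-AKITA replicate 2 (0.739 FPKM).

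Genotype differences were estimated with limma on log2(FPKM + 1) across all 16286 genes, two-sided and with p-values adjusted by the Benjamini-Hochberg method. On this scale the difference, Ins2-AKITA minus WT, was -0.56 with a standard error of 0.35 for *Rtl1* and -0.45 (0.44) for *Meg3*. It was -0.22 (0.43) for *Mirg*, -0.20 (0.49) for *Dlk1* and 0.09 (0.21) for *Rian*. As plain ratios of deposited values, the Ins2-AKITA mean was 0.665 of the WT mean for *Rtl1* and 0.709 for *Meg3*. For *Meg3*, *Mirg*, *Dlk1* and *Rian* the difference was within about 1 standard error of 0.

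None of the 5 transcripts passed an adjusted p of 0.05 in limma, against 0.0246% of all genes, which is 4 lower genes and 0 higher ones. Those 4, *Snora47*, *SNORA13*, *Gm14889* and *Gm17592*, were each at 0 in both Ins2-AKITA mice. *Rtl1*, called lower with Cufflinks in the study, was thus not called with limma here. The study's WT level of *Rtl1* was close to the mean of the deposited values, 36.2 FPKM. The study's Ins2-AKITA level was below the mean of the deposited values, 24.0 FPKM, so the estimate differed as well as the test. None of the 5 transcripts had an unadjusted p under 0.05 in limma, against 4.46% of all genes (1.53% higher and 2.93% lower in Ins2-AKITA mice). For none of the 5 were the groups apart, whereas both Ins2-AKITA mice lay below all WT mice for 10.3% of all genes and above them for 9.24%, 19.5% together. The mean log2 value was lower in Ins2-AKITA mice for 4 of the 5, though for none of them under TPM, and for 53.5% of all genes on the deposited scale. The median difference of the 5 was -0.22 and that of all genes -0.03. Nothing is read from these counts, since the contrast entered the choice of the genes. With 3 mice against 2, an exact permutation test could not reach a p below 0.1.

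The size of the differences, and for *Dlk1* and *Mirg* the sign, depended on which mice were used. Among the other scales, only TPM changed signs. When mice were left out 1 at a time, the difference ran from -0.91 to -0.22 for *Rtl1* and from -0.83 to -0.08 for *Meg3*. It changed sign for *Dlk1*, -0.97 without Ins2-AKITA replicate 2 and 0.58 without Ins2-AKITA replicate 1, and for *Mirg* it ran from -0.78 to 0.34, again set by which Ins2-AKITA mouse was kept. *Rian* stayed between 0.00 and 0.23. Scaling to protein-coding genes gave -0.60 for *Rtl1*, -0.50 for *Meg3*, -0.26 for *Mirg*, -0.24 for *Dlk1* and 0.05 for *Rian*. Median-ratio scaling gave -0.54, -0.43, -0.19, -0.17 and 0.12 in the same order. TPM brings the FPKM of each mouse, small and ribosomal RNAs included, to 1 common sum. It made all 5 differences positive, from 0.98 for *Rtl1* to 1.67 for *Rian*, and moved the median of all genes to 1.07. Relative to that median, *Rtl1* was then at -0.09, *Meg3* at 0.20 and *Rian* at 0.60. Relative to the median of all genes on the deposited scale they were at -0.53, -0.42 and 0.13. Since 1 divisor per mouse leaves ratios between genes unchanged, this move comes from the 1 added before the logarithm. It is no change of the transcripts relative to other genes.

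**Figure D3:**
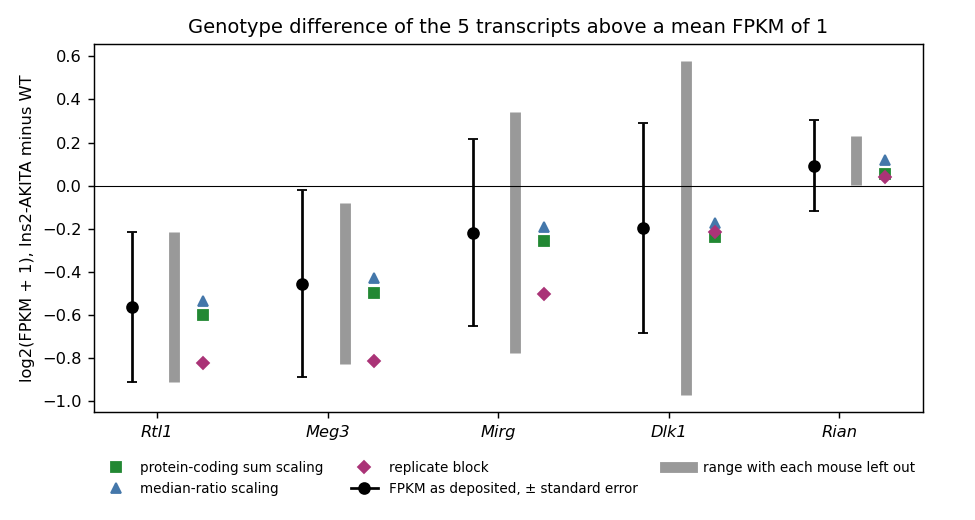
Difference of log2(FPKM + 1), Ins2-AKITA minus WT (y axis), of the 5 transcripts above a mean FPKM of 1, with the limma estimate ± standard error in black, the range with each mouse left out as a grey bar, and 3 alternatives as coloured marks. The values as deposited run from -0.56 for Rtl1 to 0.09 for Rian, the grey bars of Mirg and Dlk1 cross 0, and under TPM, not drawn, all 5 lie between 0.98 and 1.67.

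Over the mice, the transcripts of the locus fell into unlike profiles. *Meg3* and *Rtl1* shared their order of mice from high to low, WT 1, WT 2, Ins2-AKITA 1, WT 3 and Ins2-AKITA 2. This was also the most common of the 120 possible orders, held by 556 of 15209 genes with 5 distinct values (3.66%), so the shared order does not set this pair apart. The share of small and ribosomal RNA genes in the FPKM sum fell in the same order of mice, 96.7%, 96.6%, 89.6%, 58.0% and 40.6%. Whether the profile follows this property of the libraries was not tested. The order of *Mirg* differed only in that Ins2-AKITA 1 came before WT 2, which was the order of 332 genes. *Rian* and *Dlk1* followed orders held by 90 and 104 genes. WT replicate 1 was the highest mouse for 4 of the 5 tested transcripts, as for 28.4% of all genes, and Ins2-AKITA replicate 2 the lowest for 3, as for 23.2% of all genes. Both held for 3 transcripts and for 9.57% of all genes.

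The ratio of 2 transcripts within a mouse does not depend on how the mouse was scaled. For every 1000 FPKM of *Meg3* there were 32.5, 34.1 and 40.2 FPKM of *Rtl1* in the WT mice against 32.1 and 32.8 in the Ins2-AKITA mice. This ratio changed 1.25-fold from its lowest to its highest mouse, while *Meg3* itself changed 2.57-fold. Of 14383 genes above 0 in every mouse, 42 kept a steadier ratio to *Meg3* than *Rtl1* did (0.292%), and the median gene's ratio changed 3.07-fold. When mice were left out 1 at a time, the share of steadier genes ran from 0.00695%, without WT replicate 3, to 1.28%, without WT replicate 1. This measure was chosen after the values had been seen and is a description of 5 mice. Highly expressed genes have less counting error, which also makes for steadier ratios.

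*Mirg* came next, with 17.3, 18.9 and 20.2 FPKM for every 1000 FPKM of *Meg3* in WT against 25.5 and 18.8 in Ins2-AKITA mice. Its ratio changed 1.48-fold, and 2.12% of genes were steadier (0.313% without Ins2-AKITA replicate 1 and 5.20% without Ins2-AKITA replicate 2). For *Gm17639*, over the end of *Meg3*, the ratio changed 1.56-fold and 3.50% of genes were steadier. *Rian*, though read in the same direction as *Meg3*, had 49.0, 45.1 and 88.8 FPKM for every 1000 FPKM of *Meg3* in WT against 69.9 and 103 in Ins2-AKITA mice. The 2 libraries with the least *Meg3* had the highest share of *Rian*. As *Rian* itself changed only 1.38-fold, this mostly restates their *Meg3* values. For *Rian*, 23.5% of genes were steadier (21.3% without WT replicate 2 and 43.7% without WT replicate 1). *Dlk1* had the widest ratio of all, from 5.46 in Ins2-AKITA replicate 1 to 30.5 in Ins2-AKITA replicate 2, and 87.7% of genes were steadier.

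**Figure D4:**
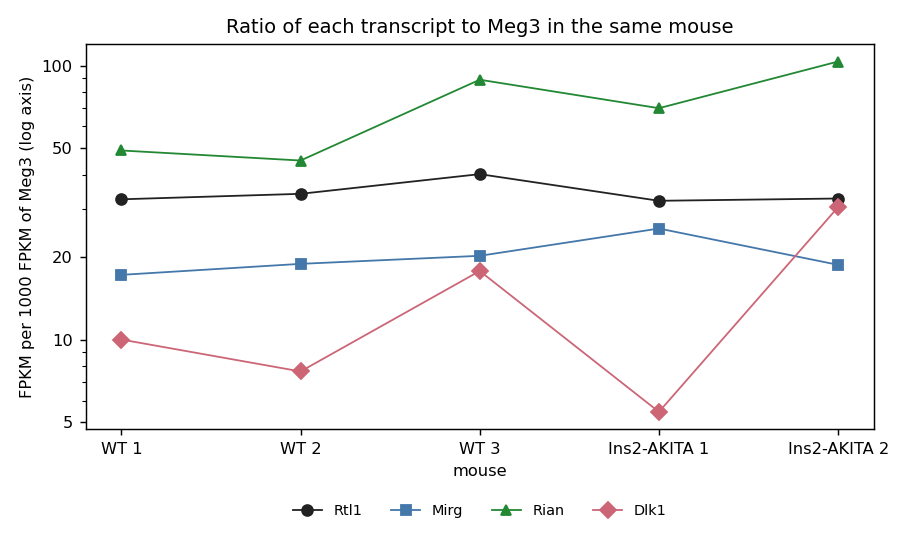
FPKM of Rtl1, Mirg, Rian and Dlk1 for every 1000 FPKM of Meg3 (y axis, log scale) in each of the 5 mice (x axis), with lines joining the points of 1 transcript. Rtl1 stays between 32.1 and 40.2 and Mirg between 17.3 and 25.5, whereas Rian spans 45.1 to 103 and Dlk1 spans 5.46 to 30.5.

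Genes with the most similar profile were found by the largest gap, over the 5 mice, between values of log2(FPKM + 1) centred on their mean. For *Meg3* they were *Gm10390*, *Gm17724*, *BC100451*, *Gm16051* and *Spns1*, with largest gaps of 0.08 to 0.11, among 8426 genes with a wide enough range. In this ranking *Rtl1* came 112th with a gap of 0.24, *Gm17639* 244th, *Mirg* 334th and *Dlk1* 5573rd. For *Rtl1* they were *Srprb*, *Srpk1*, *Sema3f*, *Nktr* and *A230006K03Rik*, with gaps of 0.05 to 0.09 among 8816 genes, and *Meg3* came 179th. For *Rian* they were *Surf4*, *Pde8b*, *Unc79*, *Tlr7* and *2700081O15Rik*, with gaps of 0.04 to 0.07 among 15603 genes. Each of *Rtl1* and *Meg3* thus had many genes closer to it than the other was.

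The cell type markers moved with the libraries too. The endothelial sum was 759, 1010 and 598 in WT against 610 and 483 in Ins2-AKITA mice, lowest in the same 2 libraries, WT 3 and Ins2-AKITA 2, that were lowest in *Meg3*, *Rtl1* and *Mirg*. By mean log2 value 14 of 15 endothelial markers were lower in Ins2-AKITA mice and 8 of 8 astrocyte markers higher, with median differences of -0.43 and 0.49, none past an adjusted p of 0.05 in limma and 2 and 1 at an unadjusted p under 0.05, where 4.46% of all genes were. The endothelial median was -0.24 without Ins2-AKITA replicate 2, -0.29 without WT replicate 2 and -0.67 without WT replicate 3, and the astrocyte median ran from 0.34 to 0.68 over the mice left out. Under TPM both medians were positive, 1.13 and 2.12. The astrocyte sum was 2198, 2596 and 3056 in WT against 3439 and 4036 in Ins2-AKITA mice. The neuron sum, 2010, 1880 and 1984 in WT against 1998 and 2385 in Ins2-AKITA mice, was highest in Ins2-AKITA 2, where *Meg3* was lowest. *Camk2a* alone gave 1220 of the sum in that mouse. Single neuron markers, named after their values were seen, differed. *Camk2a*, *Snap25*, *Tubb3*, *Slc17a7*, *Gad2*, *Nefl* and *Stmn2* were highest in Ins2-AKITA 2. *Grin1*, *Syt1* and *Gad1* had their lowest values in WT 3 and Ins2-AKITA 2, as *Meg3* did. The part of cell composition in the values of the locus was not tested.

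**Figure D5:**
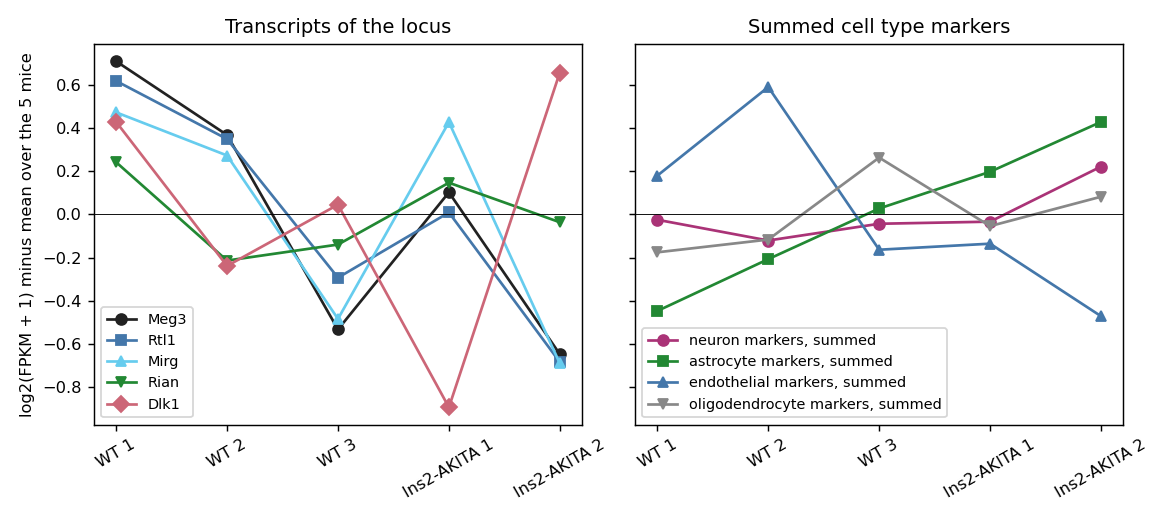
Values of log2(FPKM + 1) minus their mean over the 5 mice (y axis) for 5 transcripts of the locus (left) and, in the same way, for the summed FPKM of marker genes of 4 cell types (right), by mouse (x axis). Meg3, Rtl1 and Mirg are low in WT 3 and Ins2-AKITA 2, Dlk1 is lowest in Ins2-AKITA 1, the summed endothelial markers are lowest in WT 3 and Ins2-AKITA 2 and the summed neuron markers are highest in Ins2-AKITA 2.

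The remaining marker lists were summed in the same way. The 9 pericyte markers summed to 218 to 276 FPKM in WT and 192 to 247 in Ins2-AKITA mice, with a median difference of -0.25 (1.08 under TPM), which was -0.013 without Ins2-AKITA replicate 2 and -0.46 without Ins2-AKITA replicate 1. The 4 smooth muscle markers summed to 212 to 249 and 129 to 166, with a median difference of -0.66 (0.93 under TPM), and 3 of 4 were lower at an unadjusted p under 0.05, as were 2.93% of all genes. The 8 microglia markers summed to 153 to 190 and 141 to 161, and the 5 fibroblast markers, of which *Dpt* was at 0 in all mice, to 21.1 to 25.5 and 23.6 to 24.5. The 5 erythroid markers summed to 35.1 to 67.7 and 25.1 to 32.4, with a median difference of -1.09, the largest of the marker lists. All 5 had a lower mean log2 value in Ins2-AKITA mice, as did 53.5% of all genes. In limma 1 of 5 was lower at an unadjusted p under 0.05, as were 2.93% of all genes. No marker of these lists passed an adjusted p of 0.05 in limma.

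The genes that handle thyroid hormone, the substrate of *Dio3*, were well represented. Of 16 listed, 15 were tested, and *Dio1*, an activating deiodinase, was at 0 in all mice. *Ttr*, the thyroxine carrier made by the choroid plexus, had 1785, 1993 and 669 FPKM in WT against 1790 and 960 in Ins2-AKITA mice, low in the same 2 libraries as *Meg3*. *Thra*, the main thyroid hormone receptor of the brain, had 698, 563 and 547 FPKM in WT against 625 and 727 in Ins2-AKITA mice. The difference was highest for *Crym*, which binds the hormone in the cytosol, at 0.56 (standard error 0.29), and lowest for *Slc7a5*, an amino acid carrier that also takes thyroid hormone, at -0.59 (0.26). The mean log2 value was higher in Ins2-AKITA mice for 7 genes and lower for 8, with a median of -0.02 (1.42 under TPM, and -0.059 to 0.12 over the mice left out), and 0 genes had an unadjusted p under 0.05 in limma.

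The Notch pathway, with which *Dlk1* is known to interact, had all 15 listed receptors, ligands and targets above the filter. *Notch1* had 21.8, 37.5 and 20.7 FPKM in WT against 20.1 and 30.6 in Ins2-AKITA mice, a level above that of *Dlk1* in every mouse. *Dll1*, a canonical ligand, had 12.7, 9.05 and 5.32 FPKM in WT against 5.38 and 2.14 in Ins2-AKITA mice, the lowest difference of the list at -1.09 (standard error 0.47). *Nrarp*, a target and feedback inhibitor of the pathway, had the highest at 0.38 (0.34). The mean log2 value was lower in Ins2-AKITA mice for 11 genes and higher for 4, with a median of -0.25 (0.97 under TPM), and 0 genes had an unadjusted p under 0.05 in limma. Without Ins2-AKITA replicate 2 that median was -0.043, and without WT replicate 2 it was -0.16. In both lists the smallest adjusted p from limma was 0.896.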

How the data were processed

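The authors depleted ribosomal RNA, made stranded libraries, mapped reads to NCBIM37 with TopHat2 2.0.4, removed duplicates with Picard 1.92 and tested with Cufflinks 2.2.1, versions per the processing notes. They deposited 1 FPKM value per Ensembl gene and mouse. The program behind the values of single mice and the annotation release are not given in the sources used here. Removing duplicates can lower short, highly expressed genes, and division by length can inflate genes shorter than a fragment.

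Of 37982 identifiers, 37197 matched GENCODE vM1, and rows sharing a symbol were summed to 34615 symbols. The 16286 with a mean FPKM of at least 1 were tested on log2(FPKM + 1) with limma 3.58.1 (lmFit, eBayes with a trend) in R 4.3.3, with genotype as the only factor, two-sided, with Benjamini-Hochberg adjustment at 0.05. The added 1 understates changes of low genes. The fit was tested on simulated data. Python 3.11.15 did all else. Depth was estimated from genes with 1 transcript. It was chosen so that as many of their low values as possible came within 0.05 of whole fragments. Between 98.0% and 98.5% per mouse did, which is the fitted quantity and no separate check. The test does not use the estimate, and counts of fragments cover counting error only.

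No 2 mice had identical values. Each library is 1 mouse, but with so few mice p-values rest on a spread borrowed across genes. Replicate numbers were not used as a block, since the sources name no pairs. Alternatives were TPM, scaling to protein-coding genes, median-ratio scaling, a pseudocount of 0.1, other filters, the highest row per symbol, a constant prior variance, the block, and each mouse left out. Steadiness of ratios was added after seeing the data. Named were all 6 transcripts, other genes of the locus above 0 in at least 3 mice, the most abundant and most different genes of each list, and the 5 genes most like *Meg3*, *Rtl1* and *Rian*, among genes whose range over the mice was at least that of the transcript divided by 1.5. Of the genes meeting this rule in the lists, some are given only within their list's count. The transcripts and lists were chosen with earlier results of these data known. Promoter and miRNA sequences are from RefSeq, and miRNA positions from a match to NCBIM37. The quantitative PCR, tracer and staining experiments were not used here.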

Additional observations from a re-analysis of the deposited data

How the results depend on the processing

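None of the 5 tested transcripts of the locus passed adjustment under any alternative. Over all genes, limma called 0 genes higher and 4 lower. TPM gave 58 and 30, and a constant prior variance gave 1 and 2. No filter on low values and a filter at a mean FPKM of 5 each gave 2 lower genes. With each mouse left out the counts ran from 0 to 10 higher, 10 without Ins2-AKITA replicate 2, and from 1 to 6 lower, 1 without either Ins2-AKITA mouse. Leaving out an Ins2-AKITA mouse leaves 1 of that genotype, assumed to vary like the WT mice, so those counts rest on the WT spread alone. The median difference of the 5 transcripts, -0.22, became 1.17 under TPM and ran from -0.78, without Ins2-AKITA replicate 1, to -0.026, without WT replicate 1. In a fit with a replicate block this median was -0.50, and 5 lower and 0 higher genes passed adjustment. *Meg3* and *Rtl1* had differences of -0.81 and -0.82 there, at an unadjusted p under 0.05 in limma. So did 1249 of the 16286 genes, 809 of them lower in Ins2-AKITA mice. *Rtl1* also had an unadjusted p under 0.05 in limma without WT replicate 3. The share of all genes under that threshold was not counted for this fit, so nothing is read from it. The block drops WT replicate 3, which has no partner of its number. The same-numbered mice had correlations of their deviations of 0.05 and -0.03, and with 2 Ins2-AKITA mice, whose deviations are exact opposites, these cannot show a pairing. Of 70 differences of single transcripts recomputed, 63 moved by less than the spread between mice, and the other 7 were the 5 under TPM and those of *Dlk1* without either Ins2-AKITA mouse. The filters, the highest row per symbol and the constant prior variance could not change these differences. The block repeated the values found without WT replicate 3. The 63 thus include repeats and outcomes fixed in advance, and their number is no measure of robustness. Depth limits *Dio3* most, then *Dlk1* and *Mirg*. The cause of these shifts was not tested.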

Other observations

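Genes known to keep the parental marks of such loci were measured in the same mice. Of 18 listed, 15 were tested. *Dnmt3a*, which sets DNA methylation, had 90.2, 115 and 74.9 FPKM in WT against 70.6 and 40.4 in Ins2-AKITA mice, a log2 difference of -0.77 (standard error 0.30). *Tet3*, which oxidises methylated cytosine, had 74.0, 64.0 and 52.3 FPKM in WT against 42.9 and 35.9 in Ins2-AKITA mice, a difference of -0.66 (0.22). *Ezh2*, the catalytic subunit of Polycomb repressive complex 2, had 20.1, 14.8 and 36.0 FPKM in WT against 33.2 and 58.9 in Ins2-AKITA mice, a difference of 0.97 (0.42). *Dnmt3a* and *Tet3* were the 2 of 15 genes with an unadjusted p under 0.05 in limma, both lower, where 2.93% of all genes were lower at that threshold. No gene passed adjustment, with a smallest adjusted p of 0.896, and the list's median was 0.01 (1.14 under TPM, and -0.16 to 0.075 over the mice left out).

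Other imprinted genes were led by *Gnas*, *Nnat* and *Snrpn*. Of 37 listed, 30 were tested, *Phlda2* was at 0 in all mice and *Kcnq1ot1* and *Peg13* were not found under these names. The mean log2 value was lower in Ins2-AKITA mice for 21 and higher for 9, with a median of -0.18 (1.20 under TPM), which ran from -0.38, without WT replicate 3, to -0.043, without Ins2-AKITA replicate 2, and was -0.079 and -0.095 without WT replicates 2 and 1. *Kcnk9*, a maternally expressed potassium channel, had 9.58, 13.1 and 6.79 FPKM in WT against 4.51 and 3.96 in Ins2-AKITA mice, a difference of -1.01 (standard error 0.33), and was the 1 of 30 genes with an unadjusted p under 0.05 in limma, a share near the 4.46% of all genes. None passed adjustment. Of the genes flanking the locus that are expressed from both chromosomes, 17 of 20 listed names were found, and all 17 were tested. *Wdr20*, *Rage* and *Mok* were not found under these names. In this list 0 genes had an unadjusted p under 0.05 in limma. By mean log2 value 11 were higher and 6 lower, with a median of 0.09 (1.24 under TPM, and 0.022 to 0.11 over the mice left out). The lowest and highest differences were those of *Amn*, -0.63 (0.49), and *Wdr25*, 0.54 (0.38). Of 21 listed names of genes that process small RNAs, 16 were found and 15 were tested, with *Lin28a* at 0 in all mice. *Rnasen*, *Ago1*, *Ago2*, *Ago3* and *Ago4* were not found under these names. *Nhp2l1*, a snoRNA-binding protein, was the 1 of 15 with an unadjusted p under 0.05 in limma, at 0.56 (0.21). Over all genes, 1.53% were higher at that threshold and 4.46% passed it in either direction. The median of that list was -0.01 (1.15 under TPM, and -0.011 to 0.076 over the mice left out).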
